A study of Mus musculus with 6 samples.

Results

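The 43 genes described here encode proteins that carry cells through mitosis: the mitotic cyclins and Cdk1, mitotic kinases, the chromosomal passenger complex, centromere and kinetochore proteins, kinesins and other spindle proteins, and the machinery of chromosome separation and cytokinesis. They were chosen as a list of gene names, with no threshold on their values but with earlier results of these data known. All 43 were found among the 10780 protein-coding genes of the deposited expression table. All 43 reached 1 FPKM in at least 2 libraries and so were among the 10014 genes tested. FPKM is a level: the fragments mapped to a gene, divided by the length of its transcript and by the size of the library.

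Expression was measured by RNA sequencing in RAW264.7 cells, an established mouse macrophage-like line. Control cells (NC), cells given lipopolysaccharide (LPS, a bacterial outer-membrane component that activates macrophages) at 10 ng/ml, and cells given LPS at 10 ng/ml together with Sal-B at 50 μmol/L were compared, with 2 libraries in each of the 3 groups, numbered replicate 2 and replicate 3; the third group is called the Sal-B libraries below. All groups are the same line, no group received Sal-B alone, and the labels give neither the time of treatment nor the full name of Sal-B. Whether the 2 libraries of a group came from separate cultures is not stated, so the p-values reflect the scatter among libraries, which may be technical.

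Entry into mitosis is driven by Cdk1 bound to cyclin A or cyclin B. A spindle of microtubules, motors and bundling proteins then captures chromosomes at their kinetochores, the anaphase-promoting complex (APC/C) triggers their separation, and the cell is cut apart by cytokinesis. Transcripts of these genes are known to rise in the G2 and M phases and to be low in cells that do not divide, and LPS is known to slow the division of growing macrophages. Many of their promoters hold a cell cycle genes homology region (CHR), bound by complexes built on the MuvB core, and CCAAT boxes, bound by NF-Y.

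FPKM totals per library ran from 309767 to 374371, and 8639 to 9847 genes stood at 1 FPKM or more. Read depth is unknown, because the low values were not multiples of a common step in any library (33.3% to 52.9% of those tested came within 0.05 of one). Across genes, which are not independent replicates, Pearson correlation between the libraries of a group was 0.963 in control, 0.989 for LPS and 0.994 for Sal-B. The control pair stood further apart than the others, with 34 of the 43 mitosis genes higher in control replicate 2. Of 10 macrophage markers listed, all but Mertk were found, as 10 entries under 9 gene names. None was at 0 in any library, from 3.48 FPKM at the lowest to 915 FPKM at the highest. T and B cell, fibroblast and epithelial markers were not among the genes used here. Transcripts of the 13 mitochondrially encoded genes took 29.1% and 30.7% of FPKM in control libraries, 18.1% and 18.8% in the LPS libraries and 26.00% and 24.97% in the Sal-B libraries. The 10 macrophage marker entries summed to 1941 and 1468, then 1563 and 1561, then 726 and 739 FPKM in the same order. The part of either in the results was not tested.

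RefSeq promoter windows (GRCm38.p6, 250 bases before to 50 after each gene's start) matched 37 of the 43 genes by symbol; Incenp, Dlgap5, Ccna2, Kif20a, Aurkb and Tpx2 had none. Some genes have more than 1 window, and a gene was counted once if any of its windows matched. The letters TTTGAA, the usual form of the CHR, were searched on both strands and were held by 30 of the 37 genes (81.1%). They were held by 14.5% of 7886 tested genes with a window and by 20.2% of all 27025 genes with a window. CCAAT, also searched on both strands, was in 29 genes (78.4%), against 43.6% of tested genes and 41.1% of all genes with a window. Both were in the same window for 26 genes (70.3%), against 6.11% and 7.97%. The first base of TTTGAA lay at a median of position 3, counted from 1 at the gene's start, and that of CCAAT at a median of position -66. Matches in every window of a gene entered these medians. TTTAAA, another form of the CHR, was in 10 genes (27%), against 10.6% of tested genes. TTTGGCG, a form of the E2F site of genes of the G1 to S step, was in 0 genes, against 3.2% of tested genes. TTTCGCG, another form, was in 2 genes (5.41%), against 2.21%.

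**Figure D1:**
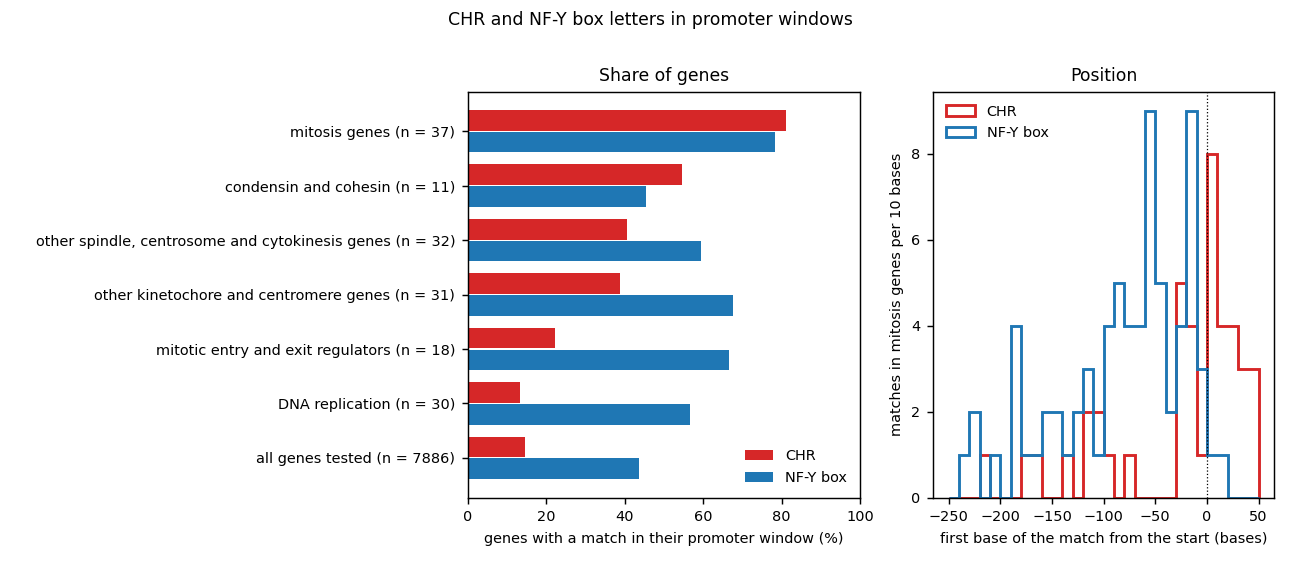
Left, the share of genes in each list (%) with a promoter window that holds TTTGAA (CHR) or CCAAT (NF-Y box) on either strand. Right, matches per 10 bases in all windows of the 37 mitosis genes against distance from the gene's start. TTTGAA was in 81.1% of the mitosis genes with a window against 13.3% of the DNA replication list. Its matches gather around the start while CCAAT lies before it.

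Sequences are shown for 3 genes of the cyclin and kinase groups that hold both kinds of element, in the order of their fall with LPS, to let the spacing of the elements be seen. Ccnb1 and Bub1b, next by the same rule, are left out because the stretch of Ccnb1 runs into its annotated transcript and the CHR of Bub1b lies further past the start than is printed. Each runs 5′ to 3′ on the gene's strand from 150 bases before the start. Capitals mark the CHR letters and CCAAT on either strand, so that TTCAAA stands for a CHR read on the other strand, and ATTGG likewise for a CCAAT box.
Plk1: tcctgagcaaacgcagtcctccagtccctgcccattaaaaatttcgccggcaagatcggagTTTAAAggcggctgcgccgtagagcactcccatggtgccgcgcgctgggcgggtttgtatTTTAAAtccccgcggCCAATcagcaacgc
Ccnb2: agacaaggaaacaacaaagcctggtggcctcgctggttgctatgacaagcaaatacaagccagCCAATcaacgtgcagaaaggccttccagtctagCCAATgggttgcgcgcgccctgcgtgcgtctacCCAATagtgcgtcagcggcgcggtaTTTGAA
Ttk: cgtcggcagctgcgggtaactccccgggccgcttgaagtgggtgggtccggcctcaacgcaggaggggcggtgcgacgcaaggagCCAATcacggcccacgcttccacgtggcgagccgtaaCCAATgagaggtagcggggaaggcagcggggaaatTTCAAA
The stretches are chr7:122159285-122159434 on the plus strand, chr9:70421545-70421704 on the minus strand and chr9:83834539-83834701 on the plus strand (GRCm38.p6). In Ccnb2, 3 CCAAT boxes are followed by a CHR just past the start, and Ttk has the same order with 2 boxes. Plk1 has a pair of TTTAAA matches before its start, and its TTTGAA lies at position 31, past the printed end.

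A second set shows the 3 genes with windows that had the largest rises with Sal-B (Kif20b, Hmmr and Cenpf) and the 3 with the largest falls with LPS among those that did not pass the test with Sal-B (Nusap1, Kif11 and Ndc80). These 6 were chosen after their values were seen.
Kif20b: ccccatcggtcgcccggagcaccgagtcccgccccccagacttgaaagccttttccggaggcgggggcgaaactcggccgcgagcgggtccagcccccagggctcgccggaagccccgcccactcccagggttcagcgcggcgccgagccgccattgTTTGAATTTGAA
Hmmr: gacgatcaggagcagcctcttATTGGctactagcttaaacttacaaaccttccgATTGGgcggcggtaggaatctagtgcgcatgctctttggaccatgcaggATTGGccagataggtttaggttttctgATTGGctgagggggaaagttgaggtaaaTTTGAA
Cenpf: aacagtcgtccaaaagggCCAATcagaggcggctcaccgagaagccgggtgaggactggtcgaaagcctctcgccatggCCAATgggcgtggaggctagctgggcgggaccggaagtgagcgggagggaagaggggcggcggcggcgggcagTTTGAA
Nusap1: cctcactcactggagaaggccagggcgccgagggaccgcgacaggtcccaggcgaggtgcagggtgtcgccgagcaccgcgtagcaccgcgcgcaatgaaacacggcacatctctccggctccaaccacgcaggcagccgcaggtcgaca
Kif11: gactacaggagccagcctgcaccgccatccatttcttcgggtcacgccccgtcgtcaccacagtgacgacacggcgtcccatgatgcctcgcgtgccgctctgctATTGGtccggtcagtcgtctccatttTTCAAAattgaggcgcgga
Ndc80: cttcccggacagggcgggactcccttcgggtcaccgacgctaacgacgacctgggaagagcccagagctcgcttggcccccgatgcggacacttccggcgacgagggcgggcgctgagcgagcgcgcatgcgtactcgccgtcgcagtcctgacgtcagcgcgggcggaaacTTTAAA
In the order printed they are chr19:34922208-34922376 (plus strand), chr11:40733424-40733587 (minus), chr1:189688079-189688236 (minus), chr2:119618148-119618297 (plus), chr19:37376232-37376381 (plus) and chr17:71526830-71527007 (minus). Kif20b has TTTGAA repeated end to end and no CCAAT, Hmmr has CCAAT boxes ending in a CHR, and Nusap1 has none of these letters in its window. Ndc80 is printed with a TTTAAA, and its TTTGAA lies at position 30, past the printed end. Over all 37 genes with a window, the median log2 fold change of LPS plus Sal-B against LPS was 0.38 in the 30 with TTTGAA. It was 0.10 in the 7 without it (Ccnb1, Bub1, Birc5, Cenpe, Nuf2, Nusap1 and Knstrn). The ranges overlapped, from -0.52 to 1.80 and from -0.35 to 1.34. Of the genes without TTTGAA, Ccnb1, Birc5 and Cenpe hold TTTAAA, the other form of the CHR. The part of these letters in the changes was not tested.

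The mitosis genes were lower in every LPS library than in either control library, and Sal-B was accompanied by higher levels of a part of them. Each of the 43 fell with LPS (limma, adjusted p under 0.05 over all genes tested), where 63.1% of all genes tested passed, 48.9% lower and 14.2% higher. With LPS plus Sal-B against LPS, 17 rose, 2 fell and 24 did not pass the test, where 42.3% of all genes passed, 10.5% higher and 31.8% lower. Against control, 37 were still lower with LPS plus Sal-B, where 72.8% of all genes passed, 58.8% lower and 14% higher. The centromere protein Cenpe was higher than in control, and Cenpa, Cenpf, Cdca8, Incenp and Kif20b did not pass the test. These 3 comparisons share libraries: LPS libraries enter the first and the second, and control libraries the first and the third.

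Summed over the 43 genes, expression stood at 1349 and 1166 FPKM in control libraries, 381 and 380 in the LPS libraries and 527 and 548 in the Sal-B libraries. Replicates 2 and 3 are given in that order here and throughout. The median mitosis gene ranked at percentile 82.7 of the tested genes by level in control, 56.8 with LPS and 68.5 with LPS plus Sal-B. The summed level with Sal-B thus lay above both LPS libraries and well below both control libraries. In bulk RNA, a smaller share of dividing cells and less of these transcripts per cell cannot be told apart.

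Fold changes were taken on log2(FPKM + 1), which understates the change of low genes, and are given with their SE from the linear model. With LPS the median of the 43 genes was -1.73, from -2.77 for Nusap1 to -0.70 for Cdca8, against -0.40 for all genes tested, and 37 fell by at least 2-fold on that scale. No LPS library overlapped a control library for any of the 43, a pattern that 60.8% of all genes tested showed in the lower and 20.4% in the higher direction. With Sal-B against LPS the median was 0.25, from -0.52 for Ect2 to 1.80 for Kif20b, against -0.22 for all genes tested. Libraries did not overlap for 28 of the 43 in the higher and 8 in the lower direction, against 24.9% and 58.1% of all genes tested. Against control the median with LPS plus Sal-B was -1.23, against -0.63 for all genes tested, and 37 genes lay lower and 2 higher without overlap, against 67.9% and 19.2% of all genes tested.

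Scaling changed these counts, since most genes of the table were lower in the treated libraries. With libraries scaled to the same median, 26.4% of all genes fell and 28.9% rose with LPS, their median moved from -0.40 to 0.01, and 40 mitosis genes fell, with Cdk1, Incenp and Cdca8 no longer past the threshold. With Sal-B against LPS, the same scaling gave 24 rises and 0 falls of the 43, where 17.6% of all genes rose and 20.2% fell. Against control it gave 24 falls and 6 rises (Cdca8, Cenpa, Cenpe, Cenpf, Incenp and Kif20b), where 32% of all genes fell and 31.7% rose.

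The count with Sal-B also depends on single libraries. Leaving out an LPS library turned the 17 rises into 11 (replicate 2) or 10 (replicate 3). Leaving out a Sal-B library turned them into 6 (replicate 2) or 8 (replicate 3), and leaving out either control library into 23. The 2 falls became 0 or 1 without a treated library and 5 without either control library. The 6 that remained in each case were Kif20b, Hmmr, Cenpf, Cenpe, Top2a and Cenpa, each of which rose by at least 2-fold. When each treated pair was averaged to 1 sample, a setting chosen after seeing the data, the spread rested on the control pair alone. Then 30 of the 43 fell with LPS, and 0 of the 43 and 0 of all genes passed limma's adjusted test with Sal-B against LPS. Averaging left the fold changes themselves as they were, with a median of 0.25 for the 43 genes against -0.22 for all genes tested.

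**Figure D2:**
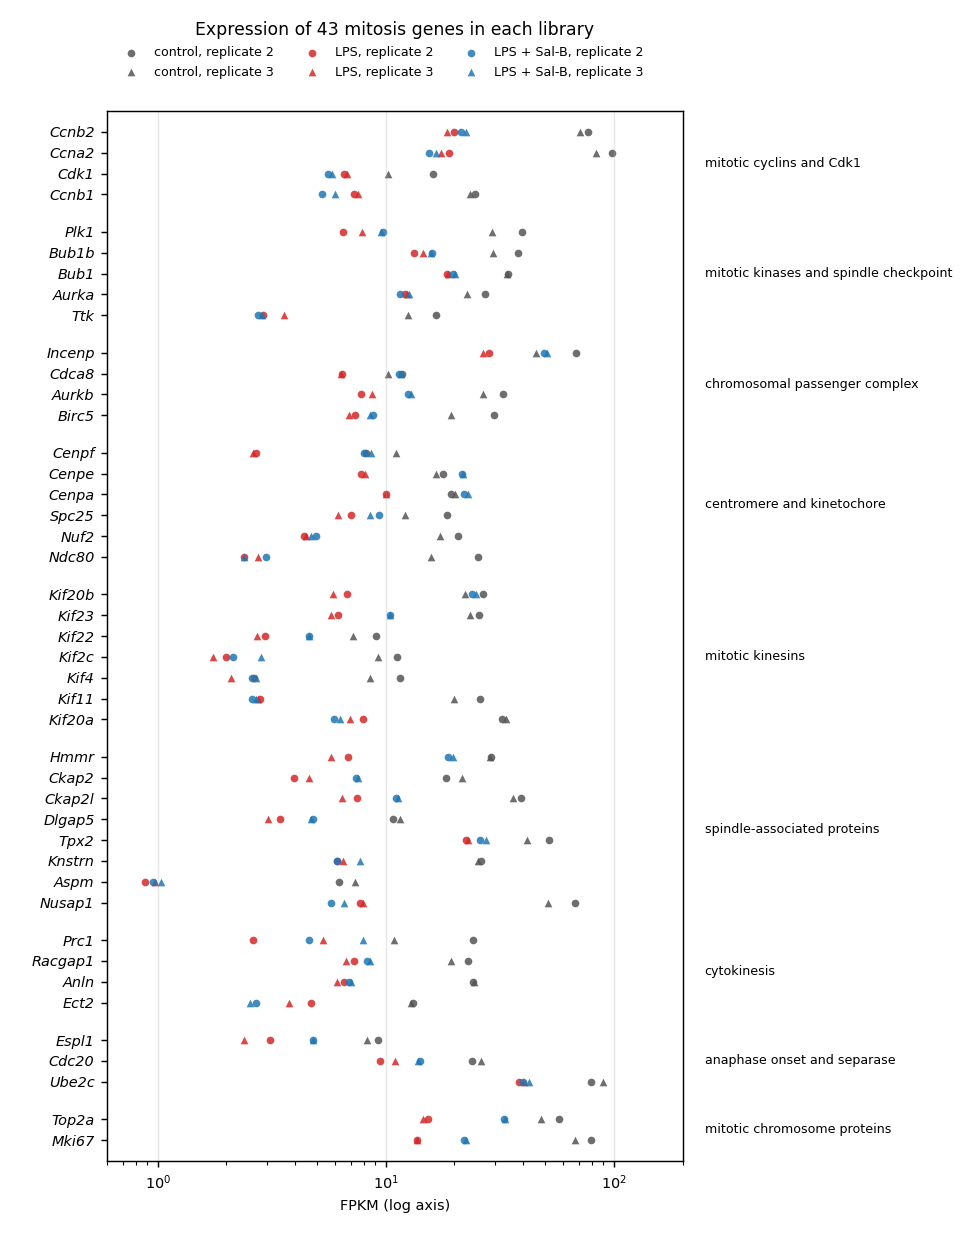
FPKM of each of the 43 genes in each of the 6 libraries (log axis), grouped by role and coloured by group, with circles for replicate 2 and triangles for replicate 3. Every LPS point lies below both control points of its gene in level, and the Sal-B points of Kif20b, Cenpa, Cenpe and Cdca8 lie among or above the control points.

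**Figure D3:**
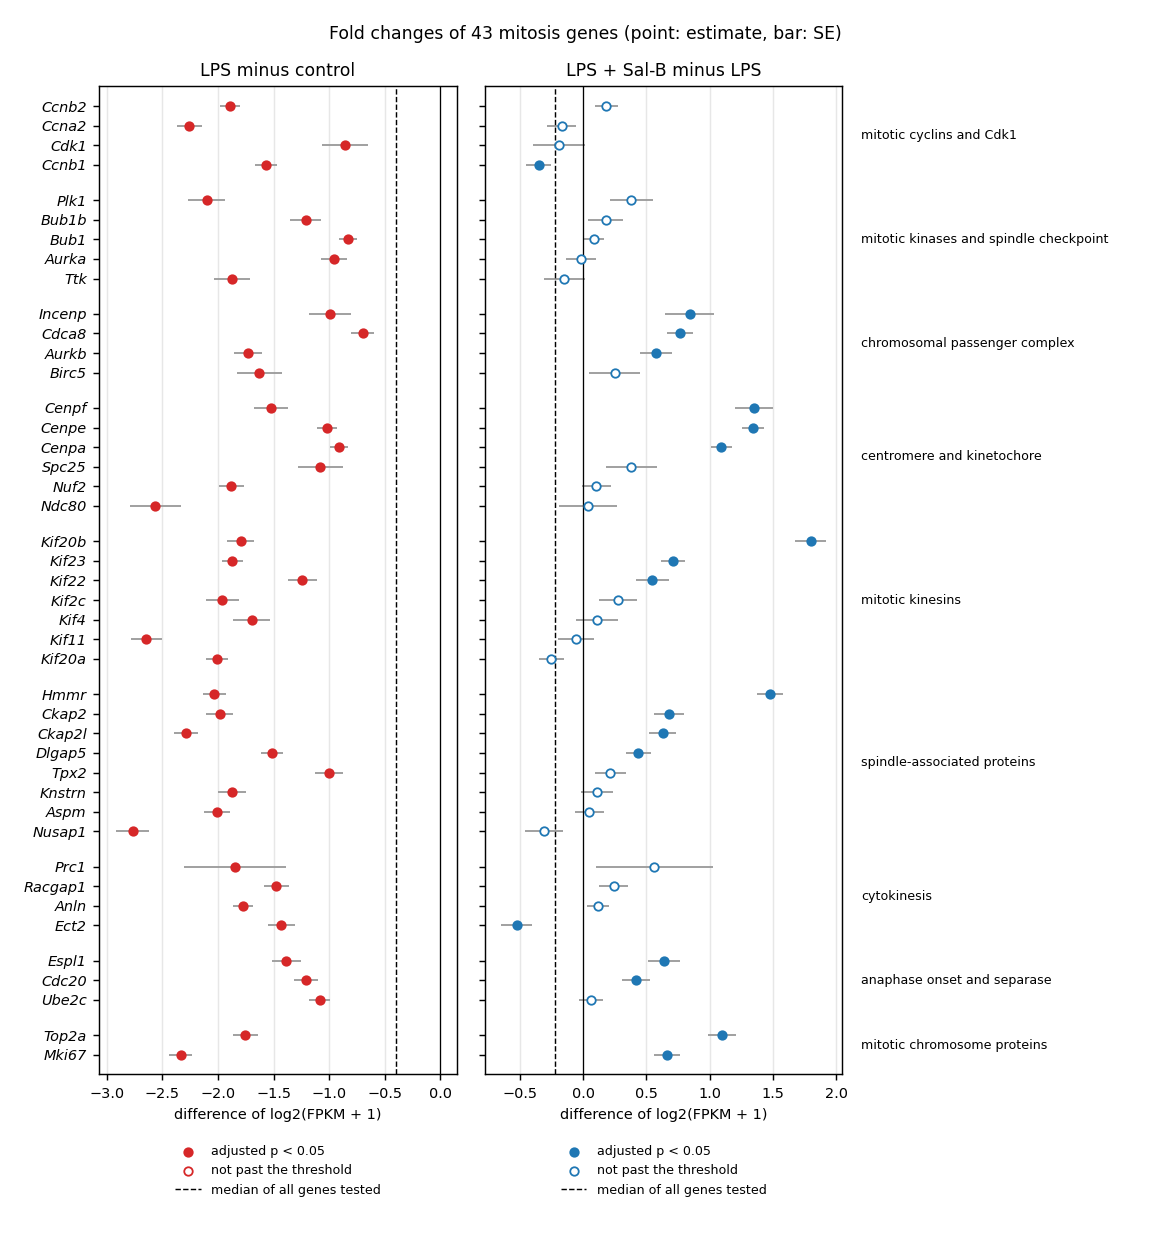
Log2 fold changes of the 43 genes (points, with SE as bars) with LPS against control on the left and with LPS plus Sal-B against LPS on the right; filled points passed the test (adjusted p under 0.05) and the dashed line is the median of all genes tested. All points on the left are filled, and on the right the filled points run from -0.52 for Ect2 to 1.80 for Kif20b.

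The mitotic cyclins and Cdk1 fell with LPS. With Sal-B against LPS, 0 of the 4 passed the test as a rise, where 10.5% of all genes tested did. Ccna2, which encodes cyclin A2, stood at 98.4 and 83.6 FPKM in control libraries, 18.9 and 17.4 in LPS libraries and 15.5 and 16.6 in Sal-B libraries. Ccnb2, encoding cyclin B2, stood at 76.9 and 71.03 FPKM in control libraries, 19.8 and 18.6 in LPS libraries and 21.3 and 22.5 in Sal-B libraries. Both kinds of treated library lay far below control, and the treated groups lay close together. Ccna2 changed by -2.26 ± 0.11 (adjusted p = 0.000181) with LPS and by -0.17 ± 0.11 with Sal-B against LPS, which did not pass the test (adjusted p = 0.271, 95% interval -0.45 to 0.11). Ccnb2 changed by -1.89 ± 0.09 (adjusted p = 0.000158) and 0.18 ± 0.09 (adjusted p = 0.157).

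Cyclin B1, the partner of Cdk1 at mitotic entry, was lower again in the presence of Sal-B, as were 31.8% of all genes tested. The median change of all genes tested in that comparison was -0.22. Ccnb1 stood at 24.7 and 23.4 FPKM in control libraries, 7.28 and 7.58 in LPS libraries and 5.27 and 5.97 in Sal-B libraries, with no overlap between any of the 3 groups. It fell by 1.57 ± 0.10 (adjusted p = 0.000294) with LPS and fell by 0.35 ± 0.10 (adjusted p = 0.0378) with Sal-B against LPS, a call lost under 10 of 18 alternatives, including all 3 scalings. Cdk1, the kinase itself, stood at 16.2 and 10.2 FPKM in control libraries, 6.54 and 6.76 in LPS libraries and 5.60 and 5.82 in Sal-B libraries. Its control libraries differed from each other by more than the LPS libraries differed from control replicate 3. The fall with LPS, -0.86 ± 0.21 (adjusted p = 0.0145), was lost when either LPS library was left out, at the same median, under quantile normalization and in the averaged pairs.

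The mitotic kinases and spindle checkpoint genes all fell with LPS. With Sal-B against LPS, 0 of 5 passed the test, where 42.3% of all genes tested passed, 10.5% higher and 31.8% lower. Plk1, the kinase that acts on centrosomes, kinetochores and the cleavage site, stood at 39.4 and 29.2 FPKM in control libraries, 6.50 and 7.85 in LPS libraries and 9.70 and 9.54 in Sal-B libraries. Ttk, the checkpoint kinase also called Mps1, stood at 16.6 and 12.5 FPKM in control libraries, 2.88 and 3.58 in LPS libraries and 2.75 and 2.86 in Sal-B libraries. Bub1b, which encodes the checkpoint protein BubR1, stood at 38.1 and 29.5 FPKM in control libraries, 13.3 and 14.6 in LPS libraries and 16.001 and 15.8 in Sal-B libraries. Plk1 and Bub1b lay slightly higher with Sal-B than with LPS and Ttk slightly lower, none past the test. Plk1 changed by -2.10 ± 0.17 (adjusted p = 0.000436) with LPS and 0.38 ± 0.17 (adjusted p = 0.119) with Sal-B, Ttk by -1.87 ± 0.16 (adjusted p = 0.000523) and -0.15 ± 0.16 (adjusted p = 0.492), and Bub1b by -1.21 ± 0.14 (adjusted p = 0.00114) and 0.18 ± 0.14 (adjusted p = 0.342). Plk1 was called as a rise with Sal-B under 6 of 18 alternatives. Aurka, a kinase of the spindle poles, and Bub1, a checkpoint kinase, had the smaller falls with LPS, -0.96 ± 0.12 and -0.83 ± 0.08. With Sal-B they differed by -0.02 ± 0.12 and 0.09 ± 0.08. Scaled to the same median or the same total, Bub1 was called as a rise with Sal-B.

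In the chromosomal passenger complex, which corrects faulty spindle attachments and then moves to the midzone, 3 of 4 subunits rose with Sal-B. Aurkb, its kinase, stood at 32.7 and 26.6 FPKM in control libraries, 7.77 and 8.68 in LPS libraries and 12.6 and 12.9 in Sal-B libraries. Incenp, its scaffold, stood at 68.5 and 45.5 FPKM in control libraries, 28.4 and 26.8 in LPS libraries and 49.5 and 50.9 in Sal-B libraries. Cdca8, encoding Borealin, stood at 11.8 and 10.2 FPKM in control libraries, 6.41 and 6.35 in LPS libraries and 11.5 and 11.7 in Sal-B libraries. For Incenp and Cdca8 the Sal-B libraries lay between the control libraries, while those of Aurkb lay between LPS and control. Incenp rose by 0.84 ± 0.19 (adjusted p = 0.0194) with Sal-B, Cdca8 by 0.77 ± 0.10 (adjusted p = 0.00444) and Aurkb by 0.58 ± 0.13 (adjusted p = 0.0173). With LPS these 3 had changed by -0.99 ± 0.19, -0.70 ± 0.10 and -1.73 ± 0.13. Birc5, encoding Survivin, stood at 29.9 and 19.3 FPKM in control libraries, 7.34 and 6.90 in LPS libraries and 8.75 and 8.56 in Sal-B libraries, and its change with Sal-B of 0.25 ± 0.20 (adjusted p = 0.358) did not pass the test although the libraries did not overlap. The rises of Incenp and Aurkb were each lost in 6 of 18 alternatives, including the loss of any one treated library.

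Of the 6 centromere and kinetochore genes, 3 rose with Sal-B and 3 did not pass the test. Cenpe, the kinesin that carries chromosomes to the spindle equator, stood at 17.8 and 16.6 FPKM in control libraries, 7.80 and 8.12 in LPS libraries and 21.5 and 21.8 in Sal-B libraries. Cenpf, a large kinetochore protein, stood at 8.18 and 11.05 FPKM in control libraries, 2.69 and 2.63 in LPS libraries and 8.03 and 8.63 in Sal-B libraries. Cenpa, the histone that marks the centromere, stood at 19.4 and 20.1 FPKM in control libraries, 10.04 and 9.98 in LPS libraries and 22.01 and 22.9 in Sal-B libraries. With Sal-B, Cenpe and Cenpa lay above both control libraries and Cenpf overlapped them. Cenpe rose by 1.34 ± 0.09 (adjusted p = 0.00138) against LPS after -1.02 ± 0.09 (adjusted p = 0.000512) with LPS, and was higher than control by 0.32 ± 0.09 (adjusted p = 0.0187), a call lost when either Sal-B library was left out. Cenpf rose by 1.35 ± 0.15 (adjusted p = 0.0029) after -1.52 ± 0.15 (adjusted p = 0.000725), and Cenpa by 1.09 ± 0.08 (adjusted p = 0.00175) after -0.91 ± 0.08 (adjusted p = 0.000595).

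Genes of the Ndc80 complex, which binds kinetochores to microtubules, showed no change with Sal-B that passed the test. Ndc80 stood at 25.4 and 15.9 FPKM in control libraries, 2.39 and 2.75 in LPS libraries and 2.98 and 2.39 in Sal-B libraries. Nuf2, its partner in the complex, stood at 20.7 and 17.4 FPKM in control libraries, 4.36 and 4.48 in LPS libraries and 4.93 and 4.71 in Sal-B libraries. The treated libraries of Ndc80 overlapped, and those of Nuf2 lay slightly higher with Sal-B. Ndc80 changed by -2.57 ± 0.23 (adjusted p = 0.000573) with LPS and 0.04 ± 0.23 with Sal-B (adjusted p = 0.899, 95% interval -0.53 to 0.62), and Nuf2 by -1.88 ± 0.11 (adjusted p = 0.000272) and 0.10 ± 0.11 (adjusted p = 0.503). Spc25, another subunit, changed by -1.08 ± 0.20 and 0.38 ± 0.20, the second not past the test. In the second printed set, CCAAT boxes are in the promoters of Cenpf and Hmmr, which rose with Sal-B, and of Kif11, which did not pass. They are absent from those of Kif20b, which rose, and of Ndc80 and Nusap1, which did not pass. The part of the boxes was not tested.

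Among the 7 kinesins 3 rose with Sal-B, and Kif20b showed the largest rise with Sal-B of all 43 genes. Kif20b, a motor of late mitosis and abscission, stood at 26.6 and 22.2 FPKM in control libraries, 6.73 and 5.88 in LPS libraries and 23.8 and 24.9 in Sal-B libraries. The Sal-B libraries fell between the control libraries and the LPS libraries lay far below. It fell by 1.80 ± 0.12 (adjusted p = 0.000327) with LPS and rose by 1.80 ± 0.12 (adjusted p = 0.00145) with Sal-B, a ratio of mean FPKM of 3.87. Against control the difference was 0.0032 ± 0.12 (adjusted p = 0.982, 95% interval -0.30 to 0.31). Kif23, a subunit of the centralspindlin complex of the midzone, stood at 25.6 and 23.3 FPKM in control libraries, 6.15 and 5.76 in LPS libraries and 10.4 and 10.4 in Sal-B libraries. It rose in part, by 0.71 ± 0.10 (adjusted p = 0.00442) with Sal-B after -1.87 ± 0.10 (adjusted p = 0.00019) with LPS. Kif22, a motor on chromosome arms, rose by 0.55 ± 0.13 (adjusted p = 0.0226), a call lost in 6 of 18 alternatives.

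The other 4 kinesins did not pass the test with Sal-B. Kif11, the motor that separates the spindle poles, stood at 25.8 and 19.9 FPKM in control libraries, 2.81 and 2.76 in LPS libraries and 2.59 and 2.70 in Sal-B libraries. Kif20a, a midzone motor, stood at 32.2 and 33.8 FPKM in control libraries, 7.93 and 6.99 in LPS libraries and 5.91 and 6.29 in Sal-B libraries. Kif2c, which disassembles microtubules at centromeres, stood at 11.1 and 9.25 FPKM in control libraries, 1.99 and 1.75 in LPS libraries and 2.14 and 2.82 in Sal-B libraries. Kif11 and Kif20a lay slightly lower with Sal-B than with LPS, and Kif2c slightly higher. Kif11 fell by 2.65 ± 0.14 (adjusted p = 0.000205) with LPS, a mean 8.21-fold lower, and differed by -0.06 ± 0.14 with Sal-B (adjusted p = 0.773, 95% interval -0.41 to 0.30). Kif20a and Kif2c changed by -2.01 ± 0.10 and -1.96 ± 0.15 with LPS and differed by -0.25 ± 0.10 (adjusted p = 0.0964) and 0.27 ± 0.15 (adjusted p = 0.195) with Sal-B. Kif4, a chromosome-bound kinesin, fell by 1.70 ± 0.17 with LPS and differed by 0.11 ± 0.17.

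All 8 spindle-associated genes fell with LPS, and 4 rose with Sal-B. Hmmr, which helps build spindle poles, stood at 28.9 and 28.5 FPKM in control libraries, 6.80 and 5.75 in LPS libraries and 18.8 and 19.7 in Sal-B libraries. Nusap1, which bundles spindle microtubules near chromosomes, stood at 67.8 and 51.5 FPKM in control libraries, 7.71 and 7.93 in LPS libraries and 5.73 and 6.55 in Sal-B libraries. Both fell with LPS, Nusap1 further than Hmmr. With Sal-B, Hmmr lay well above its level in both LPS libraries and Nusap1 below its level in both. Hmmr changed by -2.03 ± 0.10 (adjusted p = 0.000192) with LPS and rose by 1.48 ± 0.10 (adjusted p = 0.00159) with Sal-B. Nusap1 had the largest fall with LPS of the 43 genes, -2.77 ± 0.15 (adjusted p = 0.000226), and differed by -0.31 ± 0.15 (adjusted p = 0.157) with Sal-B. Against control, Hmmr was lower with LPS plus Sal-B, -0.55 ± 0.10 (adjusted p = 0.00458), a direction that turned when libraries were scaled to the same median.

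Ckap2 and Ckap2l, related microtubule-binding proteins of the spindle, rose in part. Ckap2 stood at 18.3 and 21.5 FPKM in control libraries, 3.96 and 4.62 in LPS libraries and 7.37 and 7.55 in Sal-B libraries. Ckap2l stood at 39.2 and 36.2 FPKM in control libraries, 7.44 and 6.43 in LPS libraries and 11.1 and 11.3 in Sal-B libraries. For both, the Sal-B libraries lay above the LPS libraries and far below the control libraries. Ckap2 rose by 0.68 ± 0.12 (adjusted p = 0.00955) after -1.98 ± 0.12 (adjusted p = 0.000276), and Ckap2l by 0.63 ± 0.10 (adjusted p = 0.00786) after -2.29 ± 0.10 (adjusted p = 0.000147). Dlgap5, a stabiliser of kinetochore fibres, rose by 0.44 ± 0.10 (adjusted p = 0.0199) after -1.51 ± 0.10 (adjusted p = 0.000314). The rises of Ckap2 and Ckap2l were each lost in 4 of 18 alternatives, and that of Dlgap5 in 6. Tpx2, Knstrn and Aspm, proteins of the spindle and its poles, changed by -1.004 ± 0.12, -1.87 ± 0.12 and -2.01 ± 0.12 with LPS and differed by 0.22 ± 0.12, 0.11 ± 0.12 and 0.05 ± 0.12 with Sal-B, none past the test. Aspm, singled out after its values were seen, was the only one of the 43 genes under 1 FPKM in any library, at 0.882 and 0.970 FPKM in the LPS libraries and 0.950 and 1.04 in the Sal-B libraries.

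All 4 cytokinesis genes fell with LPS. With Sal-B against LPS, 0 passed the test as a rise and 1 as a fall, where 10.5% of all genes tested rose and 31.8% fell. Ect2, the activator of the small GTPase RhoA at the cleavage site, stood at 13.1 and 12.9 FPKM in control libraries, 4.70 and 3.76 in LPS libraries and 2.71 and 2.53 in Sal-B libraries. Racgap1, the centralspindlin subunit that recruits Ect2, stood at 22.98 and 19.4 FPKM in control libraries, 7.22 and 6.67 in LPS libraries and 8.26 and 8.54 in Sal-B libraries. Anln, which encodes the scaffold anillin, stood at 24.04 and 24.3 FPKM in control libraries, 6.57 and 6.13 in LPS libraries and 6.89 and 7.06 in Sal-B libraries. Ect2 was lower with LPS and lower again with Sal-B, with no overlap, while Racgap1 and Anln lay slightly higher with Sal-B than with LPS. Ect2 fell by 1.43 ± 0.12 (adjusted p = 0.000493) with LPS and fell by 0.52 ± 0.12 (adjusted p = 0.0198) with Sal-B against LPS, but its fall with Sal-B was lost in 8 of 18 alternatives, including all 3 scalings. Racgap1 changed by -1.48 ± 0.11 (adjusted p = 0.000418) and 0.24 ± 0.11 (adjusted p = 0.141), and Anln by -1.78 ± 0.09 (adjusted p = 0.000178) and 0.12 ± 0.09 (adjusted p = 0.323). Racgap1 was called as a rise with Sal-B under all 3 scalings, and Anln at the same median and at the same total.

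Prc1, which bundles the central spindle, varied most between replicates in each group. It stood at 24.03 and 10.8 FPKM in control libraries, 2.62 and 5.31 in LPS libraries and 4.59 and 7.94 in Sal-B libraries. The Sal-B libraries overlapped the LPS libraries, and on the FPKM scale, not the log2 scale of the test, control replicate 3 lay nearer to each treated library than to its pair. Its changes were -1.85 ± 0.46 (adjusted p = 0.0168) with LPS and 0.56 ± 0.46 (adjusted p = 0.365) with Sal-B, and the first was lost without control replicate 2, without LPS replicate 2 and in the averaged pairs. Its difference from control with LPS plus Sal-B, -1.28 ± 0.46 (adjusted p = 0.0485), was lost in 15 of 18 alternatives. Rccd1 overlaps Prc1 on the opposite strand in the GENCODE M21 annotation, and the counting is not stated to use strand. In all, 18 of the 43 genes overlap a gene on the opposite strand there, and 4 (Ccnb1, Ccnb2, Kif22 and Kif4) have a named pseudogene.

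Of the genes of anaphase onset, 2 of 3 rose with Sal-B. Espl1, encoding separase, which cuts the cohesin rings, stood at 9.23 and 8.26 FPKM in control libraries, 3.09 and 2.39 in LPS libraries and 4.79 and 4.81 in Sal-B libraries. Cdc20, the activator of the APC/C, stood at 23.8 and 26.2 FPKM in control libraries, 9.47 and 10.995 in LPS libraries and 14.2 and 13.8 in Sal-B libraries. Ube2c, the ubiquitin-conjugating enzyme of the APC/C, stood at 79.4 and 89.9 FPKM in control libraries, 38.4 and 40.2 in LPS libraries and 39.98 and 42.3 in Sal-B libraries. Espl1 and Cdc20 lay between LPS and control in the Sal-B libraries, and the treated libraries of Ube2c overlapped. Espl1 rose by 0.64 ± 0.13 (adjusted p = 0.0136) and Cdc20 by 0.42 ± 0.11 (adjusted p = 0.0283), after -1.38 ± 0.13 and -1.21 ± 0.11 with LPS, calls lost in 5 and 6 of 18 alternatives. Ube2c changed by -1.09 ± 0.10 (adjusted p = 0.000561) with LPS and by 0.06 ± 0.10 with Sal-B (adjusted p = 0.621, 95% interval -0.18 to 0.31).

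Both chromosome proteins of the set rose in part. Mki67, the proliferation marker Ki-67 that coats mitotic chromosomes, stood at 79.2 and 67.7 FPKM in control libraries, 13.7 and 13.7 in LPS libraries and 21.99 and 22.5 in Sal-B libraries. Top2a, the topoisomerase that untangles sister chromatids, stood at 57.4 and 48.1 FPKM in control libraries, 15.3 and 14.5 in LPS libraries and 32.9 and 33.2 in Sal-B libraries. Their Sal-B libraries lay above both LPS libraries and below both control libraries, with Top2a nearer to control. Mki67 changed by -2.34 ± 0.10 (adjusted p = 0.000144) with LPS and rose by 0.66 ± 0.10 (adjusted p = 0.00636) with Sal-B. Top2a changed by -1.75 ± 0.11 (adjusted p = 0.000291) and rose by 1.10 ± 0.11 (adjusted p = 0.00235). Against control, Top2a was lower with LPS plus Sal-B, -0.65 ± 0.11 (adjusted p = 0.00299), which turned in direction when libraries were scaled to the same median, and Mki67 was lower at -1.67 ± 0.10 (adjusted p = 0.000126).

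Other genes of mitosis also fell with LPS and divided in their change with Sal-B. The counts of each list below stand beside the shares of all genes tested. Of these, 48.9% fell and 14.2% rose with LPS, and 31.8% fell and 10.5% rose with Sal-B against LPS. Of 36 other kinetochore and centromere genes tested, 29 fell and 1 rose with LPS (median -1.25), and the Sal-B comparison had 6 rises and 3 falls (median 0.01). Sgo2a, a protector of cohesin, changed by -1.41 ± 0.09 (adjusted p = 0.000314) with LPS and 0.63 ± 0.09 (adjusted p = 0.00597) with Sal-B. Oip5, which helps load Cenpa, fell by 2.43 ± 0.17 (adjusted p = 0.000348) and differed by -0.15 ± 0.17 (adjusted p = 0.518), and overlaps Nusap1 on the opposite strand. Cenpc1, which links Cenpa to the outer kinetochore, stood at 17.7 and 16.9 FPKM in control libraries, 8.89 and 8.04 in LPS libraries and 18.7 and 19.2 in Sal-B libraries. The Sal-B libraries of Cenpc1 lay above both control libraries, a rise of 1.08 ± 0.09 (adjusted p = 0.00199) against LPS. Zwint, a kinetochore adaptor, went the other way, at 19.9 and 14.8 FPKM in control libraries, 26.4 and 28.6 in LPS libraries and 11.3 and 9.997 in Sal-B libraries: it rose by 0.65 ± 0.16 (adjusted p = 0.0152) with LPS and fell by 1.29 ± 0.16 (adjusted p = 0.00357) with Sal-B. The other falls with Sal-B, named after their values were seen like those of each list below, were of the checkpoint genes Bub3 and Mad2l1.

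Of 38 other spindle, centrosome and cytokinesis genes, 30 fell with LPS (median -1.20), and the Sal-B comparison had 11 rises and 6 falls, with a median of -0.03 that turned to 0.17 under each of the 3 scalings. Kifc1, a motor that focuses spindle poles, stood at 8.34 and 7.40 FPKM in control libraries, 2.68 and 2.35 in LPS libraries and 9.29 and 8.89 in Sal-B libraries. Cdca2, a phosphatase subunit on anaphase chromosomes, stood at 12.9 and 10.2 FPKM in control libraries, 4.64 and 4.33 in LPS libraries and 14.5 and 14.7 in Sal-B libraries. Both were above the control libraries with Sal-B, with rises of 1.52 ± 0.11 (adjusted p = 0.00162) and 1.51 ± 0.13 (adjusted p = 0.00194) against LPS. Kif18b, Ckap5 and Kif14, a pair of kinesins and a microtubule polymerase, changed by -2.01 ± 0.12, -1.37 ± 0.09 and -1.53 ± 0.11 with LPS. With Sal-B, Kif18b rose by 0.52 ± 0.12 (adjusted p = 0.018), Ckap5 fell by 0.33 ± 0.09 (adjusted p = 0.0287) and Kif14 differed by 0.30 ± 0.11 (adjusted p = 0.0799).

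Of 24 regulators of mitotic entry and exit, 19 fell and 0 rose with LPS (median -1.16), and the Sal-B comparison had 5 rises and 4 falls (median 0.10). Fbxo5, which encodes the APC/C inhibitor Emi1, stood at 41.3 and 27.9 FPKM in control libraries, 4.92 and 4.44 in LPS libraries and 9.61 and 9.75 in Sal-B libraries and rose by 0.91 ± 0.19 (adjusted p = 0.0146) with Sal-B. Ensa, an inhibitor of the phosphatase PP2A, rose by 0.48 ± 0.10 (adjusted p = 0.0143). Cdc25b, a phosphatase that activates Cdk1, stood at 20.1 and 22.1 FPKM in control libraries, 7.64 and 7.65 in LPS libraries and 13.8 and 14.6 in Sal-B libraries and rose by 0.81 ± 0.09 (adjusted p = 0.00316). Wee1, the kinase that holds Cdk1 inactive, stood at 12.01 and 11.9 FPKM in control libraries, 2.08 and 2.01 in LPS libraries and 2.56 and 2.47 in Sal-B libraries, a fall of -2.09 ± 0.09 (adjusted p = 0.000144) with LPS and a difference of 0.21 ± 0.09 (adjusted p = 0.125) with Sal-B. In Cdc25b and Fbxo5 the Sal-B libraries were between LPS and control, and Wee1 stayed near its LPS level. The other rises were of Foxm1 and Fzr1, a transcription factor of these genes and a late activator of the APC/C, and the falls were of Pttg1, Cks2, Lin37 and Lin54. Of the 14 subunits of the APC/C itself, 9 fell with LPS (median -0.54), where 48.9% of all genes tested fell (median -0.40). The Sal-B comparison had 0 rises and 4 falls, where 10.5% of all genes tested rose and 31.8% fell. Its median of -0.19 turned to 0.024, 0.034 and 0.017 under the 3 scalings. The falls were of Anapc10 at -0.76 ± 0.12 (adjusted p = 0.00604), Cdc27 at -0.64 ± 0.10 (adjusted p = 0.00644), Cdc16 and Cdc26.

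**Figure D4:**
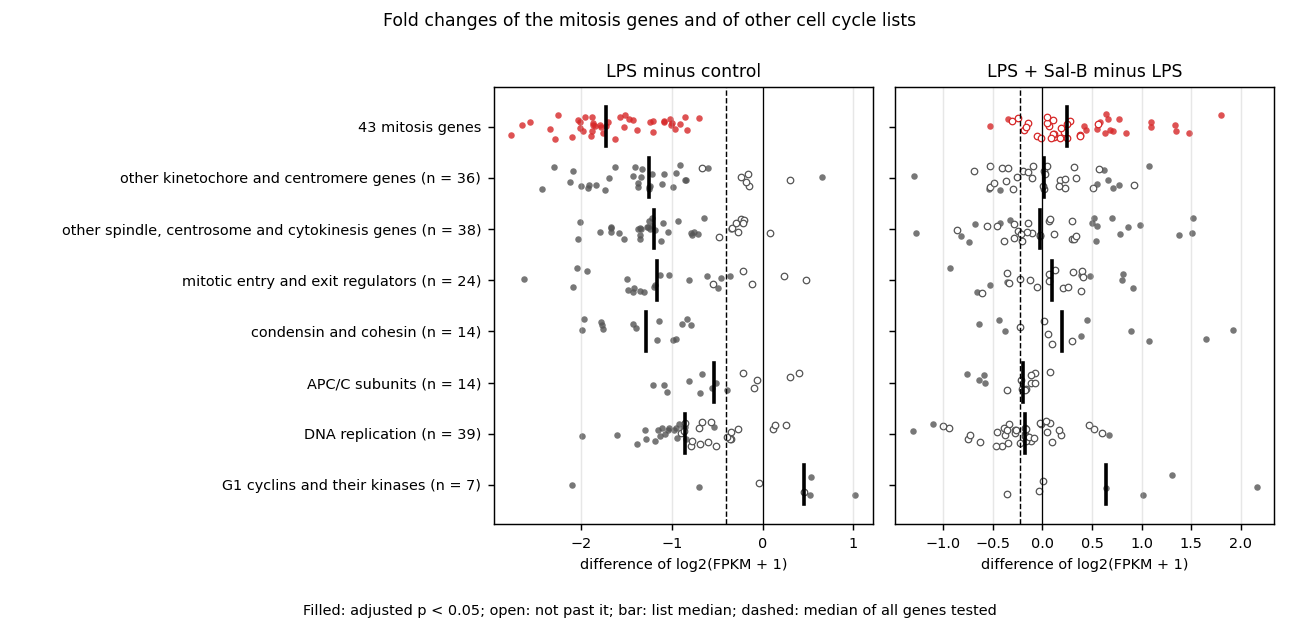
Log2 fold changes of single genes in the 43 mitosis genes (red) and in other cell cycle lists (grey), with LPS against control on the left and LPS plus Sal-B against LPS on the right; bars are list medians and dashed lines the median of all genes tested. Of the lists drawn, which were chosen with earlier results of these data known, the mitosis genes have the lowest median with LPS, -1.73. With Sal-B they spread around a median of 0.25, beside -0.17 for DNA replication, a median that turned to 0.014 after quantile normalization.

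Genes of the preceding steps of the cell cycle were set beside them. Of 39 DNA replication genes, 20 fell and 0 rose with LPS (median -0.86), where 48.9% of all genes tested fell and 14.2% rose. The falls numbered 10 at the same median, 27 at the same total and 7 after quantile normalization. In that order, 26.4%, 58.1% and 26.6% of all genes tested fell. The Sal-B comparison had 1 rise and 2 falls, with a median of -0.17 that turned to 0.0026 at the same total and 0.014 after quantile normalization. Their summed level stood at 789 and 421 FPKM in control libraries, 329.9 and 324 in the LPS libraries and 240.2 and 236 in the Sal-B libraries. The control libraries stood further apart than control replicate 3 and the LPS libraries did. Ccne2, encoding cyclin E2, stood at 6.12 and 4.42 FPKM in control libraries, 0.637 and 0.506 in LPS libraries and 1.10 and 1.25 in Sal-B libraries and fell by 1.98 ± 0.16 (adjusted p = 0.00043) with LPS. Orc6, a subunit of the origin recognition complex, stood at 15.9 and 9.98 FPKM in control libraries, 9.03 and 8.08 in LPS libraries and 2.78 and 2.92 in Sal-B libraries and fell by 1.31 ± 0.21 (adjusted p = 0.00711) with Sal-B against LPS. Gins3, a subunit of the replicative helicase, fell by 0.94 ± 0.09 (adjusted p = 0.000745) with LPS. The other fall with Sal-B was of Pcna, the sliding clamp, and the rise was of Pold1, a polymerase subunit.

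All 14 condensin and cohesin genes fell with LPS (median -1.28), and the Sal-B comparison had 6 rises and 3 falls (median 0.20). Smc2, a core subunit of condensin, which compacts mitotic chromosomes, stood at 35.5 and 26.6 FPKM in control libraries, 15.2 and 14.7 in LPS libraries and 58.4 and 60.3 in Sal-B libraries. Smc4, its partner, stood at 82.9 and 79.7 FPKM in control libraries, 43.3 and 49.9 in LPS libraries and 147 and 149 in Sal-B libraries. Both lay above every control library with Sal-B, with rises of 1.92 ± 0.15 (adjusted p = 0.00174) and 1.65 ± 0.10 (adjusted p = 0.00129) against LPS and of 0.93 ± 0.15 (adjusted p = 0.0023) and 0.86 ± 0.10 (adjusted p = 0.00066) against control. Rad21, the cohesin subunit that separase cuts, stood at 70.4 and 62.9 FPKM in control libraries, 19.05 and 18.98 in LPS libraries and 11.4 and 12.2 in Sal-B libraries and fell by 0.64 ± 0.10 (adjusted p = 0.00583) with Sal-B. The other 2 falls were of Stag1 and Stag2, also cohesin subunits.

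Genes that act in G1 were set beside them as well. Of 7 G1 cyclins and their kinases, 3 rose and 2 fell with LPS (median 0.45), and the Sal-B comparison had 4 rises and 0 falls (median 0.64). Ccnd3, encoding cyclin D3, stood at 1.01 and 1.03 FPKM in control libraries, 1.91 and 1.93 in LPS libraries and 11.8 and 12.3 in Sal-B libraries, a rise of 2.16 ± 0.09 (adjusted p = 0.000843) with Sal-B. Ccnd2, encoding cyclin D2, rose by 1.30 ± 0.16 (adjusted p = 0.00389), and Rb1, the retinoblastoma pocket protein, fell by 2.10 ± 0.17 (adjusted p = 0.000445) with LPS. Ccnd1, Ccnd3 and Cdk6 rose with LPS and Cdk2 fell as Rb1 did, and with Sal-B the rises were of Ccnd1, Ccnd2, Ccnd3 and Cdk6. Of 6 inhibitors of G1 kinases and pocket proteins in the table, 2 rose and 3 fell with LPS, and the Sal-B comparison had 1 rise and 1 fall. Cdkn1a, which encodes the Cdk inhibitor p21, stood at 51.8 and 36.3 FPKM in control libraries, 196 and 189 in LPS libraries and 341 and 345 in Sal-B libraries, with no overlap between the 3 groups. It rose by 2.12 ± 0.17 (adjusted p = 0.00043) with LPS and by 0.83 ± 0.17 (adjusted p = 0.0137) with Sal-B against LPS. Cdkn2d also rose with LPS, while Rbl1, Rbl2 and Cdkn2c fell, and Cdkn2c fell again with Sal-B.

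Among genes of these lists with a window, the TTTGAA letters of the CHR were in 54.5% of 11 condensin and cohesin genes. They were in 40.6% of 32 of the other spindle list and 38.7% of 31 of the other kinetochore list. The share was 22.2% of 18 in the entry and exit list and 13.3% of 30 in the replication list. Across the 43 genes, transcript GC content and length had weak rank correlations with the fold changes (rho = 0.34 and -0.17 with LPS, 0.08 and 0.09 with Sal-B). The points share the same 6 libraries, and over all genes tested the rho of GC content was 0.18 with LPS and 0.28 with Sal-B.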

How the data were processed

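RNA from 6 RAW264.7 libraries was sequenced after Trizol extraction with stranded kits and poly(A) selection or rRNA removal, per the labels' protocols, which do not say which library had which. The deposited FPKM values were made by the authors; cutadapt, HISAT2 2.0.5, StringTie and GRCm38 are named per the submitters' processing notes. Groups follow the labels. The 10014 genes with at least 1 FPKM in at least 2 libraries were fitted on log2(FPKM + 1) with limma 3.58.1 (R 4.3.3; 3 groups, 3 residual degrees of freedom, empirical Bayes with trend), two-sided, Benjamini-Hochberg adjusted p under 0.05 in each of 3 comparisons. The fit was tested on simulated data.

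Genes were described by role: in each role, values are given for up to 3 genes with the largest change with LPS, up to 2 with Sal-B, and genes whose call went against most. Of the other lists, up to 3 genes with the smallest p with LPS and 2 with Sal-B were named, or fewer; 1 gene that the rule names is not reported here. The genes, lists and rule were chosen with earlier results of these data known. Alternatives changed the pseudocount, filter, scaling, model and libraries. Averaging each treated pair was added after seeing the data. Promoter letters were searched in RefSeq windows, and overlaps and transcripts came from GENCODE M21.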

Additional observations from a re-analysis of the deposited data

How the results depend on the processing

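Of 18 alternatives, the falls with LPS of the 43 genes kept their direction in all, and the median of -1.73 was -1.83 at a pseudocount of 0.1, -1.26 scaled to the same median, -1.90 to the same total and -1.47 after quantile normalization. Leaving out 1 library gave 41 to 43 falls, 0 rises and medians of -1.87 to -1.59. With Sal-B against LPS, the falls were 0 under each scaling and under a minimum change of 1.2-fold, 1 with the replicate block and 4 with only the 4 libraries compared. The rises were 11 under the minimum change, and the median of 0.25 became 0.47 at the same median or total and 0.44 after quantile normalization. Leaving out 1 library gave 6 to 23 rises, 0 to 5 falls and medians of 0.22 to 0.26. In these fits the lone library of a group is assumed to vary like the other groups. Averaging each treated pair left 0 rises and 0 falls, with 1 residual degree of freedom, and 0 rises against control.

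Against control, the same median gave 24 falls, 6 rises and a median of -0.53, the same total 2 rises, quantile normalization 4 rises and a median of -0.73, and the minimum change 0 rises. Leaving out 1 library gave 35 to 38 falls, 0 to 2 rises and medians of -1.35 to -1.11. Scalings differ by construction in the median of all genes; for the other shifts the cause was not tested.

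Directions turned as follows. With Sal-B against LPS, at the same median, same total and quantile settings in that order, Kif11 was at 0.13, 0.13 and 0.16, Cdk1 at 0.025, 0.035 and 0.018, Aurka at 0.22, 0.23 and 0.19, Ccna2 at 0.066, 0.077 and 0.031, and Ttk at 0.040, 0.048 and 0.065. Against control at the same median, Hmmr was at 0.17, Top2a at 0.085, Incenp at 0.59 and Cenpf at 0.51, and under quantile normalization Incenp was at 0.070 and Cenpf at 0.41. Over the 6 fits that left out 1 library each, differences from control ran from -0.44 to 0.14 for Incenp, -0.37 to 0.022 for Cenpf, -0.029 to 0.16 for Cdca8 and -0.12 to 0.13 for Kif20b. Differences from LPS ran from -0.074 to 0.16 for Ndc80, -0.079 to 0.047 for Aurka, -0.0037 to 0.23 for Kif4 and -0.040 to 0.26 for Knstrn. Hmmr and Top2a had passed the test against control, and the others had not passed in the comparison in which they turned.

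Deviations of same-numbered libraries from their group means correlated at 0.014 (control and LPS), 0.0037 (control and Sal-B) and 0.035 (LPS and Sal-B) over all genes, so the replicate numbers were not taken to pair the libraries. Over the 43 genes alone these were -0.36, -0.21 and 0.51. The replicate block gave 43 falls with LPS, 17 rises and 1 fall for Sal-B against LPS, and 36 falls and 1 rise against control. Depth is unknown, so no counting limit could be set, and 2 libraries a group limit the precision.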
